A study of Mus musculus with 2 samples.

Results

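The IL-1 and IL-18 system of the omentum was examined through 10 genes, chosen by symbol: the ligands Il1a, Il1b and Il18, the receptor subunits Il1r1 and Il1rap, the inhibitors Il1rn, Il1r2 and Il18bp, and the inflammasome genes Nlrp3 and Casp1. All 10 were found among the 24346 gene symbols listed. Whole omenta, sheets of abdominal fat that carry the lymphoid clusters called milky spots, were taken 5 days after diphtheria toxin (DT) from mice of both genotypes, and mRNA was sequenced to find what depends on Aldh1a2+ fibroblastic reticular cells (FRCs), a stromal cell of the milky spots. The WT mice carried no receptor for the toxin. The Postn-DTR mice were heterozygous, with the receptor placed in a coding exon of Postn, which makes any cell with an active Postn promoter sensitive to the toxin, including mesenchymal cells outside the omentum. Both groups received DT, and the age, the sex and the number of mice behind each library were not given. There was 1 library per genotype, so no difference given here has a replicate check and no test between genotypes was possible.

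IL-1α and IL-1β signal through the receptor IL-1R1, which needs the shared subunit IL-1RAP to pass the signal on. IL-1Ra, made from Il1rn, occupies the receptor without triggering it, and IL-1R2 binds ligand but lacks the signalling domain, so it acts as a decoy. IL-1β and IL-18 are made as inactive precursors that caspase-1 cuts once a sensor such as NLRP3 has assembled an inflammasome, and IL-18BP is a secreted protein that captures mature IL-18. Macrophages, monocytes and neutrophils are well-known sources of IL-1β, and FRCs, endothelial and mesothelial cells carry IL-1R1.

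Levels are FPKM, the fragments of a transcript scaled to its length and to the size of the library. Total FPKM was 542190 for WT against 671882 for Postn-DTR. Low values placed the libraries at about 23200000 and 24000000 fragments. From this a read number was estimated for each gene, and it gave a 95% interval for each ratio of FPKM (exact binomial, Clopper-Pearson). These intervals cover counting error only, not the spread between mice. Postn, the targeted locus, was at 58.3 in WT against 16.2 in Postn-DTR. Because the receptor was placed in a coding exon of Postn, a disrupted allele and fewer cells cannot be told apart in this value. Aldh1a2 was at 85.5 and 63.3, which was 1.35-fold lower. Tissue markers were present, with Adipoq at 955.2 and 635.9. Pancreatic acinar genes, by contrast, summed to 12262 in WT against 20.4 in Postn-DTR, and the part of this difference in any result was not tested.

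Across the 10 genes, ligands and inhibitors of the IL-1 arm were higher in Postn-DTR while the signalling receptor was lower and caspase-1 and Il18 were nearly level. A change is the difference in log2(FPKM + 1), Postn-DTR minus WT, and a gene was counted as changed at a difference of 1 or more, which is 2-fold on that scale. By this measure 4 of the 10 genes were at least 2-fold higher (Il1a, Il1b, Il1rn and Il1r2), against 3.88% of the 13127 genes whose FPKM averaged 1 or more. None was 2-fold lower (0 of 10, against 3.12% of all genes). By the plain ratio of FPKM the same 4 genes were 2-fold higher and 0 lower, against 5.04% and 5.20% of all genes. The median change of the 10 genes was 0.57, beside 0.018 over all genes compared. The count of 4 became 1, Il1r2, with a pseudocount of 5, where Il1a was at 0.60, Il1b at 0.94 and Il1rn at 0.50, and also 1 with a minimum of 10 FPKM, which left 5 genes. The median became 0.084 with that minimum and 0.28 at equal totals, that is with both libraries brought to the same FPKM sum after leaving out the acinar genes. All 10 passed the minimum, but Il1a and Il1r2 were under an FPKM of 1 in WT and passed through Postn-DTR, so they could pass only by differing. On the ratio of FPKM, the interval lay above 1 for 6 genes, below 1 for 1 gene and on both sides of 1 for 3 genes. Such intervals were not computed over all genes. These counts therefore do not show whether the 10 genes differ from others in this respect. Scaling shifted the background. At equal totals 2.27% of all genes were 2-fold higher and 5.68% lower, and 3 of the 10 genes were still 2-fold higher.

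**Figure D1:**
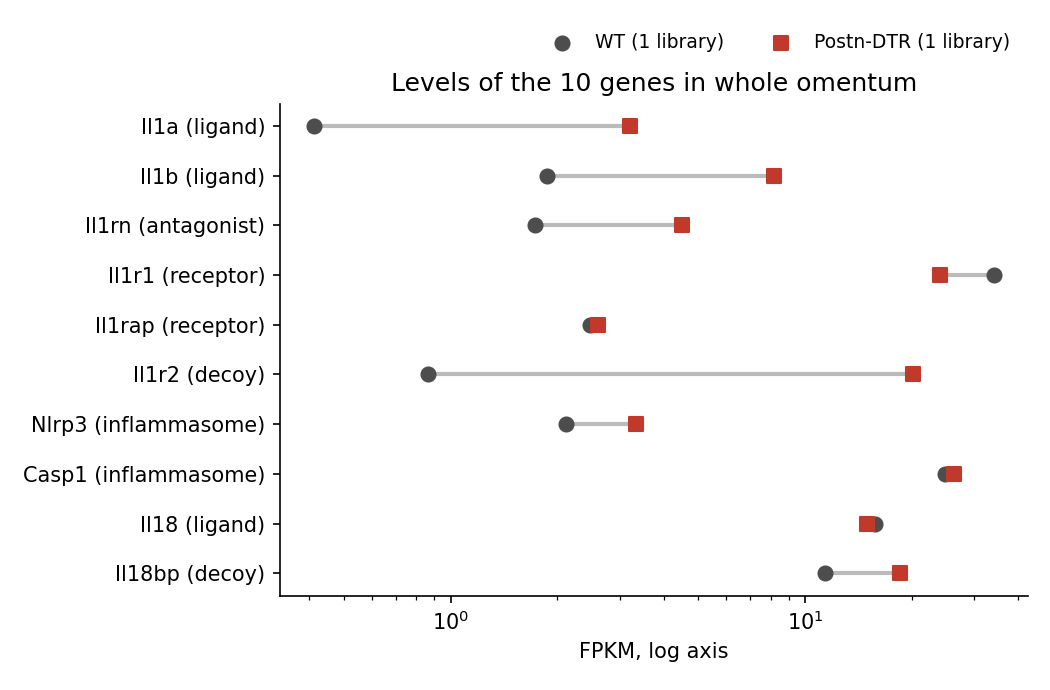
FPKM of each gene (x axis, log scale) in the WT library (circles) and the Postn-DTR library (squares), with a line joining both values of a gene and its role in brackets. The widest gap is that of Il1r2, from 0.864 to 20.1, and the points of Il1rap, Casp1 and Il18 lie almost on each other.

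The IL-1 ligands were scarce in WT and higher in Postn-DTR. Il1b (ENSMUSG00000027398, chromosome 2, 129364570 to 129371139 on the minus strand, GRCm38) was at 1.87 in WT against 8.19 in Postn-DTR, which was 4.38-fold higher with an interval from 3.21 to 6.08. Il1a (ENSMUSG00000027399, chromosome 2, 129299610 to 129309972 on the minus strand), which encodes a form that is active without cutting by caspase-1, was at 0.412 and 3.21, a ratio of 7.79 with an interval from 4.69 to 13.8. This rested on about 17 estimated reads in WT and 136 in Postn-DTR. The changes were 1.68 for Il1b and 1.58 for Il1a, and 1.36% and 1.52% of all genes compared had a larger one. Il1b remained the more abundant ligand, with Il1a at 0.220 of its FPKM in WT and 0.392 in Postn-DTR, and these ratios have intervals that overlap (0.119 to 0.388 and 0.314 to 0.487). Together both ligands made up 2.28 FPKM in WT against 11.4 in Postn-DTR. Transcripts on the opposite strand overlap Il1a (Gm14023, 0.217 and 0.263) and Il1b (Il1bos, 0.144 and 0.104), and reads of such pairs cannot be told apart where strand was not used. Ligand transcripts thus remained below those of the receptor Il1r1 in both libraries.

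Il1a and Il1b lie 61.2 kb apart, start to start, on the same strand. Their RefSeq promoter windows (GRCm38.p6, 250 bases before to 50 after the start, 5′ to 3′ on the minus strand) are shown for both IL-1 ligands. Capitals mark matches on either strand to any of 6 motifs. Searched were the TATA box as TATAAA, the site of AP-1 factors as TGANTCA, and the core of sites for the myeloid factor PU.1 as GAGGAA. The site of C/EBP factors was searched as TTGCNNAA, the E-box as CACGTG, and an NF-kappaB motif in a loose 10-base form.
Il1a, chr2:129309923-129310222: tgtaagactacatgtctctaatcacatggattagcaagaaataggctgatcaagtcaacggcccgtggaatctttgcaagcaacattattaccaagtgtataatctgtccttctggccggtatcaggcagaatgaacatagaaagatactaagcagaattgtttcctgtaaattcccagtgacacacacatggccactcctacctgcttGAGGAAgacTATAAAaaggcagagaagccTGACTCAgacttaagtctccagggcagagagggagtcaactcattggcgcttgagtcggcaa
Il1b, chr2:129371090-129371389: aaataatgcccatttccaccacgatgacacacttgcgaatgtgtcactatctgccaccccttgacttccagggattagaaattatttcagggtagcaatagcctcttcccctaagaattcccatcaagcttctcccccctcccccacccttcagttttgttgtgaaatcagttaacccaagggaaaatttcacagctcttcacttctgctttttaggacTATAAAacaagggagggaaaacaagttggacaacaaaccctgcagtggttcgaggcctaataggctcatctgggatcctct
The longest run that the windows have in common is the 10 bases gactataaaa, which begins 35 bases before the start of Il1a and 34 before that of Il1b and holds the TATAAA match of each. That motif occurs in 13.6% of all 32851 promoter windows of this length. The Il1a window also holds TGANTCA at -12 (in 7.81% of all windows) and GAGGAA at -41 (28.3%), while the Il1b window holds no other match. Of the 10 genes, 4 had TATAAA in a window, 2 had TGANTCA and 3 had GAGGAA. Among them were Il18 with TATAAA and Casp1 with GAGGAA, whose FPKM hardly differed. These are matches of letters, not measured binding sites. How often any pair of windows shares a run of this length was not tested, nor was any part of it in the levels.

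Among inhibitors of the IL-1 arm, the decoy receptor differed most. Il1r2 (ENSMUSG00000026073, chromosome 1, 40074079 to 40125231 on the plus strand) was at 0.864 in WT against 20.1 in Postn-DTR. It was 23.3-fold higher, with an interval from 15.5 to 36.6, on about 24 and 588 estimated reads. Its change was 3.50, and 24 of the 13127 genes compared (0.183%) had a larger one. Il1rn (ENSMUSG00000026981, chromosome 2, 24336853 to 24351494 on the plus strand), the receptor antagonist, was at 1.73 and 4.51, a ratio of 2.60 with an interval from 2.04 to 3.35. Its change of 1.01 lay just over the 2-fold mark and fell under it, to 0.99, 0.93 and 0.74, when changes were centred on the median of all genes, when both libraries were scaled to the same 75th percentile, and at equal totals. Its ratio was smaller than that of either ligand, although its interval overlapped that of Il1b at the edge.

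The promoter window of Il1r2 is shown for the gene with the largest change of the 10, on the plus strand and marked in the same way.
Il1r2, chr1:40085843-40086142: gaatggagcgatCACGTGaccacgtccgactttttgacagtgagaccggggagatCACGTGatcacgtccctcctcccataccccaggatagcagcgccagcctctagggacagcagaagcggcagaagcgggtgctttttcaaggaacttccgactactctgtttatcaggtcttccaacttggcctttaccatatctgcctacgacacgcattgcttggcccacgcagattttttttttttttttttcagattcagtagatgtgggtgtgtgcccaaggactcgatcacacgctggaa
RefSeq places this start inside the gene body given above, downstream of its first base. The window holds CACGTG at -238 and at -195, a motif found in 7.15% of all windows, and none of the other motifs. All 10 genes had a window, 14 in all, and CACGTG was also found in that of Casp1, whose FPKM hardly differed.

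**Figure D2:**
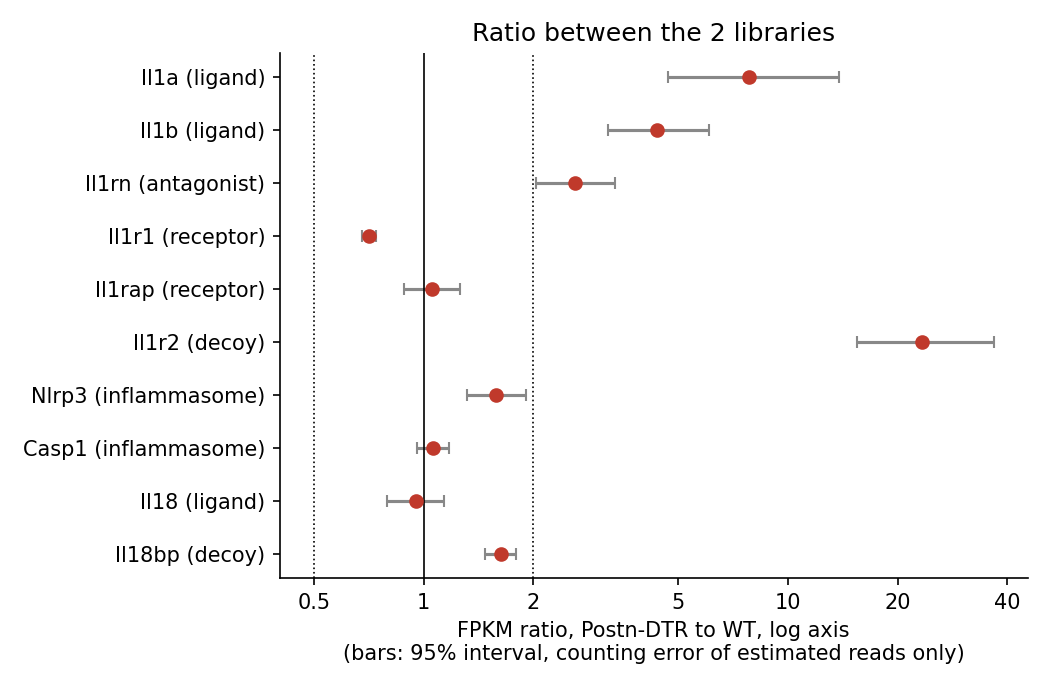
Ratio of FPKM, Postn-DTR to WT (x axis, log scale), for each gene, with bars for the 95% interval from estimated reads, which covers counting error only; the solid line is a ratio of 1 and the dotted lines are 2-fold. Il1r2 stands at 23.3, Il1a, Il1b and Il1rn lie beyond 2, and Il1r1 at 0.708 is the only gene whose interval lies below 1.

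The receptor that carries the signal was lower. Il1r1 (ENSMUSG00000026072, chromosome 1, 40225080 to 40317257 on the plus strand) was the most abundant of the 10 genes in WT, at 34.0, and was at 24.1 in Postn-DTR. It was 1.41-fold lower (interval 1.35 to 1.48), with a change of -0.48, and 12% of all genes compared had a more negative one. Il1rap (ENSMUSG00000022514, chromosome 16, 26581704 to 26730117 on the plus strand) was at 2.48 and 2.61, a ratio of 1.05 whose interval from 0.884 to 1.26 spans 1. Its change of 0.055 turned to -0.019 at the same 75th percentile and to -0.18 at equal totals. The transcript Gm20319, at 1.12 and 2.17, overlaps Il1rap on the opposite strand over 15672 bases, and whether counting used strand was not stated, so part of the Il1rap value cannot be told apart from it. The shared subunit was the scarcer partner, at 0.0728 of the FPKM of Il1r1 in WT and 0.108 in Postn-DTR.

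Decoy and receptor thus came close to each other. For every FPKM of Il1r1 there was 0.0254 of Il1r2 in WT (interval 0.0163 to 0.0379) and 0.836 in Postn-DTR (0.764 to 0.913), a ratio 32.9 times higher. With 1 added to both FPKM these ratios were 0.0532 and 0.842, a smaller difference, and Il1r2 rested on about 24 estimated reads in WT. Il1r2 made up 2.48% of the summed FPKM of both receptors in WT and 45.5% in Postn-DTR, while that sum went from 34.9 to 44.2. The antagonist was lower relative to its ligand. Il1rn stood at 0.927 of Il1b in WT (0.650 to 1.34) and at 0.551 in Postn-DTR (0.458 to 0.663), and the upper bound in Postn-DTR lay only just above the lower bound in WT. Ratios within a library do not depend on how the libraries were scaled, but they compare transcripts in whole tissue and not proteins on a cell.

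**Figure D3:**
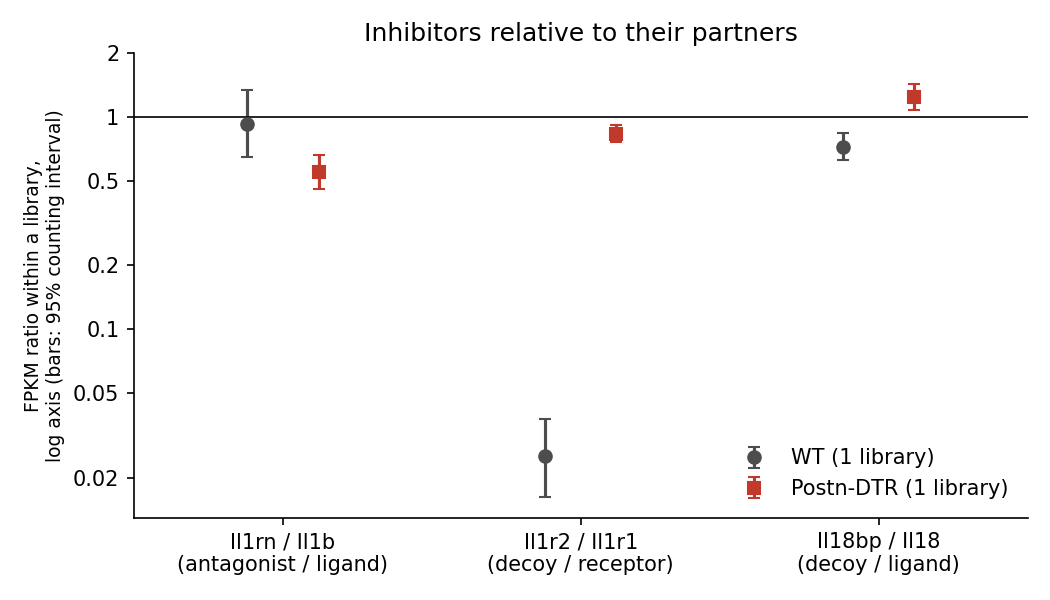
FPKM ratio of an inhibitor to its partner within each library (y axis, log scale), for WT (circles) and Postn-DTR (squares), with bars for the 95% counting interval. Il1r2 to Il1r1 goes from 0.0254 to 0.836, Il1rn to Il1b from 0.927 to 0.551, and Il18bp to Il18 from 0.723 to 1.24.

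The decoy lies at the start of a row of receptor genes of the family on chromosome 1, all on the plus strand. Il1r1 begins 151.0 kb after the annotated start of Il1r2, followed by Il1rl2 (the IL-36 receptor), Il1rl1 (the IL-33 receptor ST2), Il18r1 and Il18rap (both subunits of the IL-18 receptor), the last of which begins 441.3 kb away. Within this row 1 gene, Il1r2 itself, was at least 2-fold higher, against 3.88% of all genes. Since the row is drawn around Il1r2, the count includes that gene by choice. Il18r1 was at 6.66 in WT against 3.89 in Postn-DTR, a change of -0.65, whereas its partner Il18rap was at 2.98 and 4.05, a change of 0.34. Il1rl1 was at 2.15 and 3.57 (change 0.54) and Il1rl2 at 3.09 and 3.82 (change 0.24). Neighbours in the row therefore differed in direction as well as in size. The direction of small changes depended on scaling, since the median of the other receptors compared went from 0.24 to -0.028 at equal totals.

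**Figure D4:**
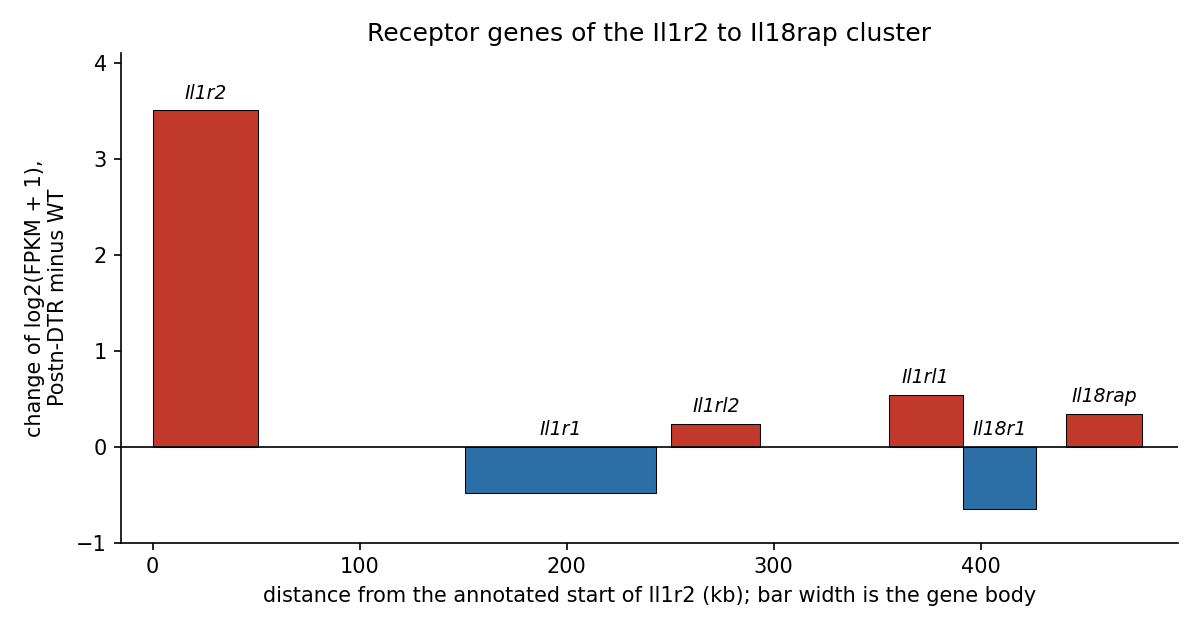
Difference in log2(FPKM + 1) between Postn-DTR and WT (y axis, positive where Postn-DTR is higher), for the receptor genes placed by distance from the annotated start of Il1r2 in kb (x axis), each bar as wide as its gene body. Il1r2 at 3.50 stands far above its neighbours, and Il1r1 at -0.48 and Il18r1 at -0.65 are below 0.

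The IL-18 arm differed less. Il18 (ENSMUSG00000039217, chromosome 9, 50554827 to 50581840 on the plus strand) was at 15.8 in WT against 15.0 in Postn-DTR, a ratio of 0.951 with an interval from 0.794 to 1.14. Il18bp (ENSMUSG00000070427, chromosome 7, 102014885 to 102018690 on the minus strand) was at 11.4 and 18.6, which was 1.63-fold higher (1.47 to 1.80) with a change of 0.66 that stayed under 2-fold. The binding protein was below its ligand in WT, at 0.723 of it (0.624 to 0.841), and above it in Postn-DTR, at 1.24 (1.08 to 1.43). Unlike Il1b, Il18 was well expressed in both libraries, at 8.44 times the FPKM of Il1b in WT and 1.83 times in Postn-DTR. The changes of Il18 and Il18bp became -0.39 and 0.33 at equal totals. Il18bp overlaps Numa1 (32.1 and 23.5) on the opposite strand by 80 bases, and Il18 overlaps Bco2 (1.86 and 1.37) by 355.

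Of the machinery that processes both cytokines, the protease was level and the sensor somewhat higher. Casp1 (ENSMUSG00000025888, chromosome 9, 5298517 to 5307265 on the plus strand) was at 24.8 in WT against 26.4 in Postn-DTR, a ratio of 1.06 with an interval from 0.961 to 1.17. Its change of 0.084 became -0.015 at the same 75th percentile and -0.24 at equal totals, so its direction depended on the scaling. Nlrp3 (ENSMUSG00000032691, chromosome 11, 59541568 to 59566956 on the plus strand) was at 2.11 and 3.34, which was 1.58-fold higher (1.31 to 1.90) with a change of 0.48. Casp4, which encodes the caspase that senses cytosolic lipopolysaccharide and begins 10.3 kb after the start of Casp1 on the same strand, was at 16.7 and 37.8, a change of 1.13. Pycard, the adaptor ASC that links sensor to caspase, was at 16.5 and 34.2, and its change of 1.005 sat at the 2-fold mark and under it once centred on the median of all genes. Gsdmd, which encodes the pore through which mature IL-1β leaves the cell, was at 56.1 and 53.8.

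By level, the 10 genes fell into an abundant and a scarce set in WT, with a gap between Il18bp at 11.4 and Il1rap at 2.48, whereas in Postn-DTR Il1b at 8.19 lay between. In WT the order was Il1r1, Casp1, Il18, Il18bp, Il1rap, Nlrp3, Il1b, Il1rn, Il1r2 and Il1a. From Il1rap to Il1rn each neighbour in this order lay within counting error of the next. In Postn-DTR the order was Casp1, Il1r1, Il1r2, Il18bp, Il18, Il1b, Il1rn, Nlrp3, Il1a and Il1rap. There, Il1r2 could not be separated from Il18bp by counting error, nor Nlrp3 from Il1a, nor Il1a from Il1rap. Il1r2 thus lay next to last in WT and directly after Il1r1 in Postn-DTR. With 2 libraries any pair of genes correlates fully, so no genes of like pattern were sought.

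The wider pathway was read from 5 lists of 47 genes in all, of which 39 passed the minimum. At least 2-fold higher were 4 of the 39 and 1 was 2-fold lower, against 3.88% and 3.12% of all genes, and the median change was 0.30, which became -0.017 at equal totals. None of the 2 other ligands, 5 other receptors and 12 signalling genes that passed was 2-fold changed in either direction. Il33, an IL-1 family cytokine stored in nuclei of stromal cells, was at 43.0 and 40.5, and 4 genes (Il1f5, Il1f6, Il1f8 and Il1f10) were listed at 0 in both libraries. Myd88, the adaptor used by IL-1 and IL-18 receptors, was at 43.5 and 67.7 (change 0.63). Of 17 inflammasome genes 3 were 2-fold higher, namely Casp4, Pycard and Naip1. Naip1, a sensor subunit at 0.865 and 3.82, shares sequence with its paralogs and is uncertain, and it too passed the minimum through Postn-DTR. Of 3 neutrophil serine proteases that can cut IL-1 precursors, Prtn3 was at 8.10 and 62.6 (change 2.80), whereas Elane was at 5.86 and 1.85 (-1.27) and Ctsg at 1.66 and 0.519 (-0.81).

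Genes known to respond to IL-1, and to other inflammatory signals as well, were mostly higher. Of 16 such genes 15 passed the minimum and 12 of them were at least 2-fold higher and none was 2-fold lower, against 3.88% and 3.12% of all genes, with a median change of 1.61. Il6, Cxcl2, Cxcl5 and Csf3 were under 1 FPKM in WT and passed the minimum through Postn-DTR, so the count and the median lean upward by selection. They are a list written with earlier results in view, since Saa3 and Lcn2 were known to be among the largest increases. The neutrophil chemokine genes Cxcl1 (1.78 and 34.9) and Cxcl2 (0.731 and 12.1) had changes of 3.69 and 2.92. Il6, encoding an inflammatory cytokine, was at 0.436 and 5.58, and Nfkbiz, a nuclear NF-kappaB cofactor, at 10.6 and 32.0 (change 1.51). The chemokine gene Ccl2 was at 14.4 and 40.8, and Nfkbia, the NF-kappaB inhibitor, at 87.6 and 240.0. Ptx3, a soluble pattern receptor, was at 1.40 and 6.30, and Zc3h12a, a ribonuclease that limits cytokine mRNA, at 9.12 and 28.9. The study also reported Ptx3 as selectively expressed in the Aldh1a2+ FRCs, so it was higher here while Postn and Aldh1a2 were lower. The acute-phase genes Saa3 and Lcn2 had changes of 6.43 and 5.62. Socs3, a feedback inhibitor of cytokine receptors, was at 17.8 and 143.4 (change 2.94). Csf3, encoding the growth factor G-CSF, was at 0.0739 and 10.1. Its WT value corresponds to about 2 reads, under the floor of 3 reads, and it was at least 95.04-fold higher against that floor.

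**Figure D5:**
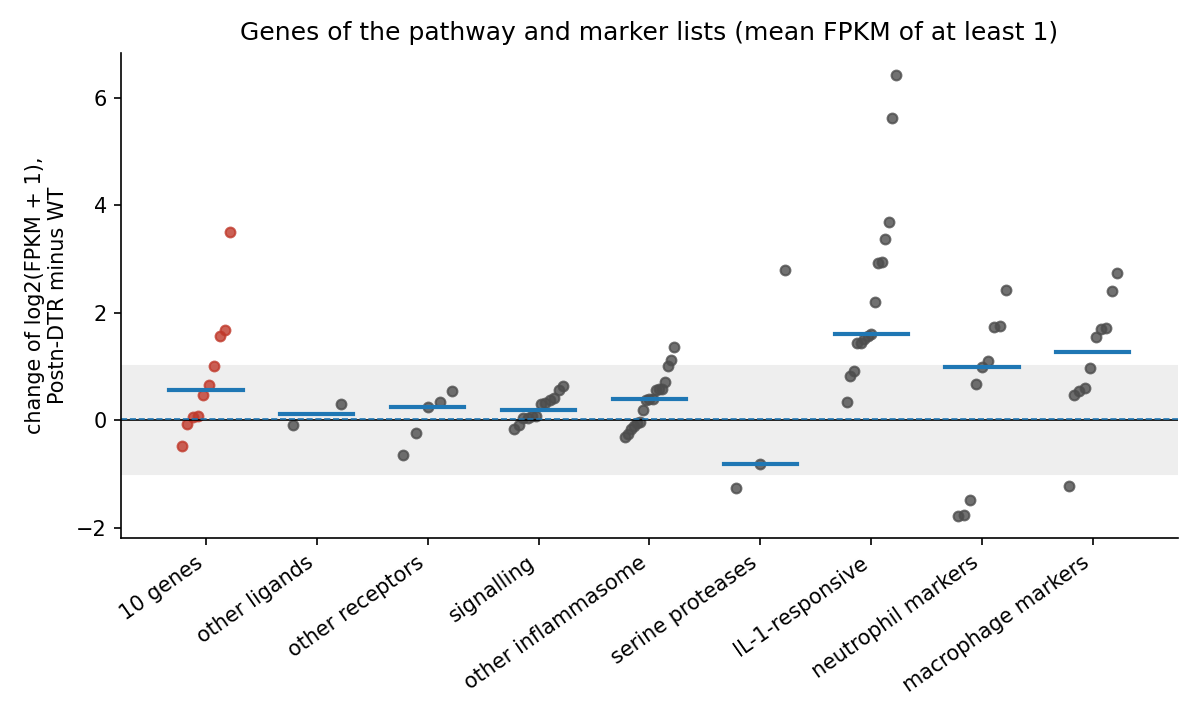
Difference in log2(FPKM + 1) between Postn-DTR and WT (y axis, positive where Postn-DTR is higher), for each gene with a mean FPKM of at least 1 in the pathway and marker lists (x axis). Bars are list medians, the dashed line is the median of all genes (0.018) and the grey band marks less than 2-fold. The 10 genes have a median of 0.57, and the IL-1-responsive list lies highest at 1.61. That list was written with earlier results in view, and some of its genes passed the minimum through Postn-DTR, so its median leans upward by selection.

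Markers of cells that can make these transcripts also differed. Fewer cells of a type and less RNA per cell cannot be told apart in whole tissue. Of 10 macrophage and monocyte markers 5 were at least 2-fold higher and 1 was 2-fold lower, against 3.88% and 3.12% of all genes, and their summed FPKM was 2968 in WT against 4985 in Postn-DTR, with none at 0. Cd14 differed most upward, at 33.6 and 230.1, and Ccr2 most downward, at 39.6 and 16.4. Of 10 neutrophil markers 9 were listed. Of these 4 were 2-fold higher and 3 lower, against the same 3.88% and 3.12%, with a sum of 432.6 in WT against 710.2 in Postn-DTR and none at 0. Retnlg was at 12.8 and 72.6, a change of 2.42, and Ngp, a granule gene of immature neutrophils, at 48.0 and 13.2, a change of -1.78. Most of the macrophage sum came from Lyz2 (2459 and 3563), and most of the neutrophil sum from S100a8 (169.7 and 338.6) and S100a9 (156.6 and 249.3). Single markers differed both ways. FPKM ratios ran from 0.413 for Ccr2 to 6.84 for Cd14 in the macrophage list. In the neutrophil list they ran from 0.189 for Mpo to 7.85 for Cxcr2. Beside these, the ratios were 7.79 for Il1a, 4.38 for Il1b, 2.60 for Il1rn and 23.3 for Il1r2. Cxcr2, under 1 FPKM in WT, passed the minimum through Postn-DTR, and Mpo, under 1 FPKM in Postn-DTR, passed it through WT. For stromal cells, which can carry Il1r1, the 4 endothelial markers summed to 186.8 in WT against 173.1 in Postn-DTR with none 2-fold changed. The 5 fibroblast markers summed to 1139 and 823.3 and 1 was 2-fold lower, namely Dpt at 236.9 and 67.3, while Pdpn had the highest change, at 46.6 and 57.1. No marker of either list was at 0. The part of these markers in the values of the 10 genes was not tested.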

How the data were processed

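The authors deposited FPKM, 1 value per gene symbol in each of 2 libraries (WT and Postn-DTR, grouped by the genotype label). Per the labels, miRNeasy columns gave the total RNA, from which TruSeq stranded mRNA libraries were prepared. The submitters' processing notes list TopHat2 2.1.1, Bowtie2 2.2.8, SAMtools 0.1.18, Cuffdiff 2.2.1 and mm10. The annotation is not given in the sources used here. Cuffdiff shares reads among isoforms and can scale libraries to each other, so FPKM of overlapping genes or paralogs are uncertain and small differences depend on scaling.

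The change of a gene is its log2(FPKM + 1) in Postn-DTR less that in WT, a scale that understates low genes. Folds quoted are FPKM ratios without pseudocount. Genes averaging 1 FPKM or more were compared, and 2-fold on the log2(FPKM + 1) scale was the threshold. With 1 library per genotype, no p-value was computed. The denominators of FPKM were compared through 723 genes under 0.1 FPKM in both libraries. Of these, 78.4% had a ratio within 0.2% of a ratio of whole numbers up to 5 times 0.967. This placed the denominator of Postn-DTR at 1.03 times that of WT, which is not their relative depth if Cuffdiff scaled the libraries. Among genes with 1 annotated transcript and under 8 reads, 66.4% (WT) and 63.7% (Postn-DTR) came out whole within 0.05 reads after 202 bases were taken off the length. The 202 bases and the WT denominator were picked to make the WT share largest, so that share is no independent check. Read numbers are approximate, since they use the longest coding transcript of GENCODE M21 (GRCm38), which also gave positions. Promoter windows came from RefSeq (GRCm38.p6). The 10 genes and all lists were chosen with earlier results of these data known. Named were the 10 genes, list genes changed 2-fold or partnering a member directly (Pycard, Gsdmd, Il18r1, Il18rap, Il33, Il1rl1, Myd88), and the marker with the highest and the lowest change; others, such as Il1rl2, Ctsg and Adipoq, were added after their values were seen. Alternatives varied pseudocount, minimum, threshold and scaling. Python 3.11.15, pandas 2.3.3 and scipy 1.17.1 were used. The calling of changes was tested on simulated data, with changes placed only in genes of higher level, and the intervals were not tested.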

Additional observations from a re-analysis of the deposited data

How the results depend on the processing

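No replicate could be left out and no paired analysis was possible because there was 1 library per genotype. The signs of Il1a, Il1b, Il1rn, Il1r2, Nlrp3 and Il18bp (higher) and of Il1r1 and Il18 (lower) held under all 5 planned pseudocounts and scalings. Il1r2 was at least 2-fold higher in each of these, with a highest change of 4.39. Ranges were 0.94 to 2.07 for Il1b, 0.60 to 2.69 for Il1a and 0.50 to 1.33 for Il1rn. Of the 10 genes, the 4 at least 2-fold higher became 1 with a pseudocount of 5 or with a minimum of 10 FPKM (5 genes left), and 2 at 3-fold. Their number was 3 under each of the 3 other scalings. The median of the 10 genes became 0.084 with a minimum of 10 FPKM and 0.28 at equal totals without acinar genes, a setting that moved the median of all genes by -0.30. In the wider pathway, of 4 genes counted as higher 1 was left with pseudocount 5 and at 3-fold, with 2 at equal totals and 8 at 1.5-fold. The 1 lower gene became 2 with a pseudocount of 0.1 and with none (the latter chosen after seeing the data), 0 with a pseudocount of 5, with a minimum of 10 FPKM and at 3-fold, and 3 at 1.5-fold. Its median became -0.017 at equal totals. There the medians of other ligands, other receptors and signalling genes became -0.17, -0.028 and -0.13, that of other ligands was -0.085 with a minimum of 10 FPKM and 0 with no minimum, and that of the proteases was 2.80 with a minimum of 10 FPKM, where 1 gene was left. The Il1r2 to Il1r1 ratio in WT became 0.0532 with 1 added to both. Over all genes the 509 higher and 410 lower became 642 and 643 with a pseudocount of 0.1, 287 and 168 with 5, 303 and 173 with a minimum of 10 FPKM, 294 and 734 at equal totals, 1294 and 1160 at 1.5-fold, and 199 and 153 at 3-fold. Stricter minimums, thresholds and pseudocounts lower a count by construction.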

Other observations

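The dendritic cell, T cell and B cell lists moved opposite to the IL-1 ligands. All 5 dendritic cell markers were lower, 4 of them at least 2-fold, against 3.12% of all genes. Their median change was -1.31, and together they reached 36.8 FPKM in WT against 14.6 in Postn-DTR. Flt3, a growth factor receptor of this lineage, was at 6.56 and 1.49, and Zbtb46, a transcription factor of conventional dendritic cells, had the smallest difference, at 5.78 and 4.90. All 6 T cell markers were lower, 4 of them at least 2-fold, with a median of -1.04. They ran from Cd3g at 18.7 and 10.5 to Cd4 at 11.3 and 3.41. All 5 B cell markers were lower, 1 of them at least 2-fold, with a median of -0.75. They ran from Cd79a at 190.9 and 169.6 to Ms4a1 at 56.8 and 23.6. Xcr1 of the dendritic cell list and Cd8a of the T cell list, under 1 FPKM in Postn-DTR, passed the minimum through WT. The 4 mesothelial markers had a median of 0.029, with Lrrn4 at 62.7 and 29.2 and Msln at 37.2 and 67.9, and the 5 adipocyte markers one of -0.59, with Lipe at 278.8 and 139.2 and Fabp4 at 4879 and 6519. Of the acinar list 25 of 25 genes compared were at least 2-fold lower, against 3.12% of all genes. The range was from Cela2a (1628 and 0.351) to Try10 (4.37 in WT and listed at 0 in Postn-DTR). All of them but Cela1, Ctrb1 and Ctrl were under 1 FPKM in Postn-DTR and passed the minimum through WT. Such genes pass only by being lower, so this count leans downward by selection.

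The neutrophil list held genes that differed both ways. Retnlg, Cxcr2 (0.514 and 4.03), Mmp8 (1.32 and 6.82) and Csf3r (6.87 and 15.9) were at least 2-fold higher. The granule genes of immature neutrophils Ngp, Camp (33.1 and 8.98) and Mpo (3.84 and 0.726) were at least 2-fold lower. Prtn3, also a granule gene of immature neutrophils, was higher (8.10 and 62.6), whereas Elane (5.86 and 1.85) and Ctsg (1.66 and 0.519) were lower.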
